A study of Mus musculus with 32 samples.

Results

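The enzymes that break down amino acids were followed as 38 genes, chosen by matching the gene symbol of each count row to a list of liver enzymes for 9 groups of amino acids. The count table held 54532 genes, 17853 of them with enough counts to test, and 37 of the 38 genes were among those. Livers of wild-type mice were compared after 2 weeks on cdHFD, a choline-free high-fat diet with little methionine, or on normal chow. The study's title places the comparison in non-alcoholic steatohepatitis and daily liver rhythms. Livers were collected every 6 h, at ZT2, ZT8, ZT14 and ZT20 (ZT is zeitgeber time, the count of hours from the onset of light), which gave 8 groups of 4 libraries of polyadenylated RNA. Of the cdHFD libraries 7 were labelled female and 9 male, with 1 female and 3 male libraries at ZT14. Of the chow libraries 8 were labelled female and 8 male, with 2 of each at every time. Both diets were given to mice of the same labelled genotype, and the labels name no strain, age or light schedule.

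The liver is the main site at which most dietary amino acids are degraded. Many of the pathways remove nitrogen by an ammonia-releasing lyase or dehydratase or by an aminotransferase. Carbon skeletons pass through enzymes such as dehydrogenases, dioxygenases and hydratases to pyruvate, acetyl-CoA or intermediates of the citric acid cycle. For branched-chain amino acids, transamination takes place largely outside the liver, which takes up the keto acids. Several of these enzymes are concentrated in periportal hepatocytes and are known to be induced by glucagon, glucocorticoid and dietary protein.

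Of the 38 genes, 30 matched an entry in the RefSeq promoter table of build GRCm38.p6; Cdo1, Cth, Kynu, Sdsl, Sds, Gpt, Dbt and Tdh had none. The 250 bases before the transcription start, written 5′ to 3′ on the gene's strand, are shown for 3 genes on which the results below turn. Hal had the largest fold change under cdHFD, Amdhd1 belongs to the same pathway and had a daily profile that differed between diets, and Gpt2 was the one gene that rose. Capitals mark matches, on either strand, to the motif of a TATA box (the letters TATAAA), of a CCAAT box (these 5 letters) or of a GC box (the letters GGGCGG).
Hal, chr10:93488518-93488767, plus strand: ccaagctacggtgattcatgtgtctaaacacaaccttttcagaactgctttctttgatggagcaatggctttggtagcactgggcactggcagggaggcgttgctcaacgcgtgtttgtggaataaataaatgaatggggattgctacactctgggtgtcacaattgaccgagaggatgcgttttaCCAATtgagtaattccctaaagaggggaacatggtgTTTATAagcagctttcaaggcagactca
Amdhd1, chr10:93540034-93540283, minus strand: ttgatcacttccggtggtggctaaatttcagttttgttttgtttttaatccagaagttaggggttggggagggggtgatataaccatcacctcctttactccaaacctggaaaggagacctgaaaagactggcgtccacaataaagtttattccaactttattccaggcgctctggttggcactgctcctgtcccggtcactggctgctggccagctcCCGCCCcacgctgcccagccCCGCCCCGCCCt
Gpt2, chr8:85492326-85492575, plus strand: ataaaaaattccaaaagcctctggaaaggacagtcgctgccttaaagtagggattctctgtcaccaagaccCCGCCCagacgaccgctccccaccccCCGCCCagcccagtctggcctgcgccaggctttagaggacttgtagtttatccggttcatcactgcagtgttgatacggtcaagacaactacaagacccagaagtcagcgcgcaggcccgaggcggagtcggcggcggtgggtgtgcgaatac
In Hal the TATA box began 28 bases and the CCAAT box 64 bases before the start. Amdhd1 had GC boxes at 32, 12 and 7 bases, the last pair sharing 1 base, and Gpt2 had them at 179 and 153 bases. Across the 30 promoters, 18 (60.0%) held a CCAAT box, against 33.8% of all 32851 promoters in the table. A GC box was in 13 (43.3%, against 32.7% of all), a TATA box in 4 (13.3%, against 12.4%) and an E-box (the letters CACGTG) in 2 (6.67%, against 6.02%). Hal and Amdhd1 are neighbours on chromosome 10 with 4033 bases between their 3′ ends, and Sds and Sdsl are divergent neighbours on chromosome 5 with 3715 bases between them.

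Library totals were 29.5 to 49.7 M counts in cdHFD and 30.5 to 54.6 M counts in chow. Levels are CPM, each gene's share of a library's counts per 1 M, scaled by TMM, whose factors were 1.08 to 1.38 in cdHFD and 0.746 to 0.918 in chow and did not overlap. Scaling by total counts alone moved the median diet effect of all genes to 0.56 on the log2 scale, against -0.02 with TMM, so each gene's change below is relative to the bulk of genes. Mitochondrially encoded genes took 3.73 to 8.31% of counts in cdHFD and 5.08 to 13.1% in chow. Hepatocyte markers summed to a median of 94076 CPM in cdHFD (72419 to 117087) and 194357 CPM in chow (168126 to 244787), with 17 of 20 lower, 1 higher and a median log2 fold change of -1.06. Macrophage and Kupffer cell markers summed to a median of 2354 CPM in cdHFD (1598 to 2688) and 552 CPM in chow (181 to 831), and all 14 were higher. None of either list was at 0. In bulk RNA, fewer hepatocytes and less of an RNA per hepatocyte cannot be told apart.

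Genes that fell in cdHFD were found in each of the 9 groups of amino acids. Averaged over the 4 times, 34 of the 37 tested genes fell, 1 rose and 2 were not called (edgeR quasi-likelihood test, p-values adjusted by Benjamini and Hochberg's method over all 17853 genes, threshold 0.05). Of all genes tested, 31.2% fell and 31.0% rose. The median log2 fold change, cdHFD over chow, was -1.15 for the 37 genes and -0.02 for all genes tested. In 24 of the 37 the fall was at least 1 on the log2 scale, against 7.85% of all genes (6 under total counts alone). The 38 genes together made up 8072 ± 1376 CPM in cdHFD and 18606 ± 1957 CPM in chow (mean ± SD, n = 16 each), and the highest cdHFD library, at 10281 CPM, lay below the lowest chow library, at 15269 CPM. For 16 genes every cdHFD library was below every chow library, which held for 2.68% of all genes; no gene of the set lay above in every library, against 5.86% of all genes. In CPM by total counts alone 6 genes lay wholly below chow (Hal, Uroc1, Hpd, Afmid, Haao and Ivd) and Gpt2 lay wholly above. The other 10 of the 16 genes overlapped under that scaling. The shares of all genes above, 7.85%, 2.68% and 5.86%, are with TMM. The matching shares under total counts alone are not given here. Statements below of no overlap between diets refer to CPM scaled by TMM. Under total counts alone 27 genes were lower and 2 higher, Gpt2 and Bckdhb. Of all 17853 genes, 1632 were lower and 12353 higher under that scaling. The median of the set there (-0.58) stayed below that of all genes (0.56).

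**Figure D1:**
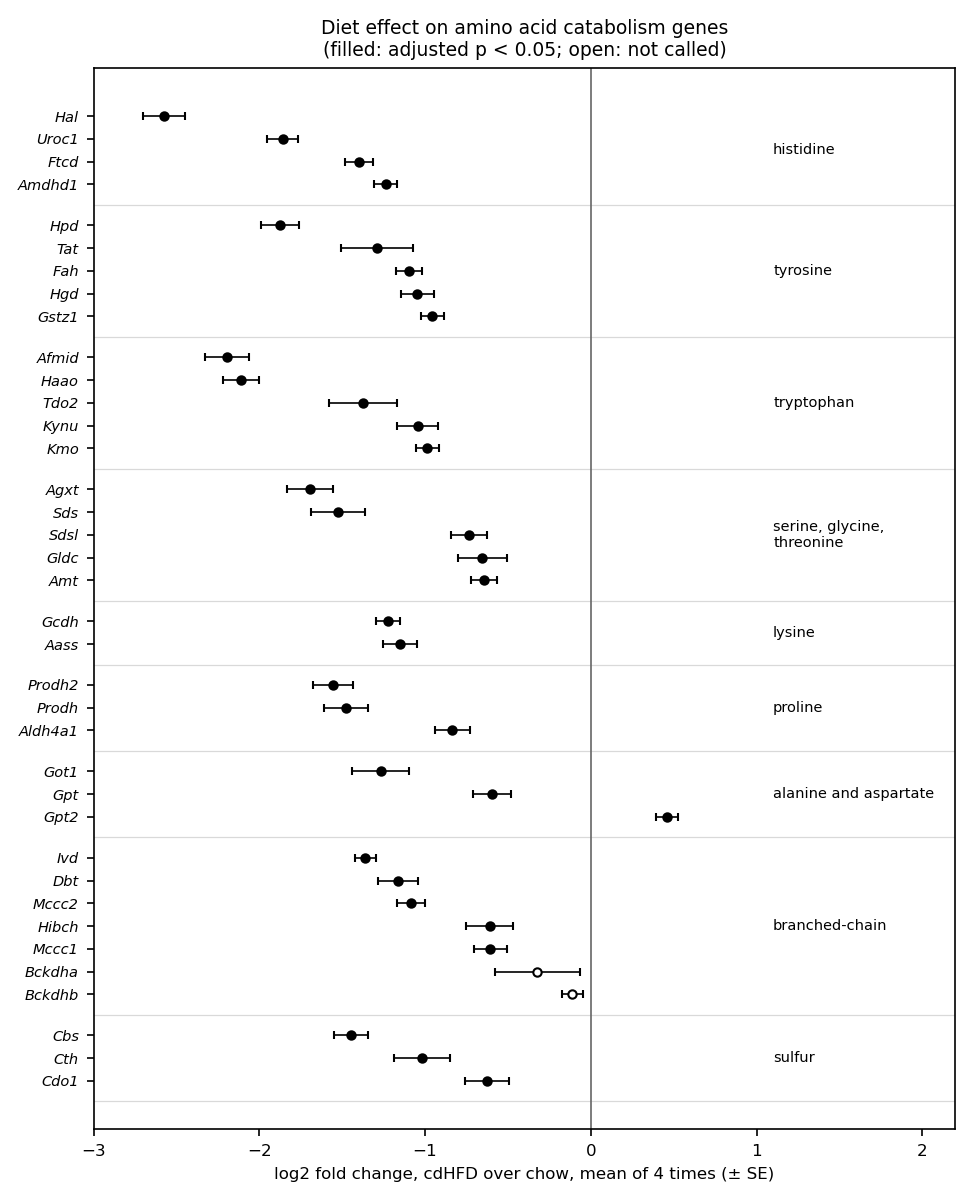
Diet effect on each of the 37 tested genes, as the log2 fold change of cdHFD over chow averaged over 4 times (x axis; bars are ± SE), grouped by amino acid down the page. Filled points passed an adjusted p of 0.05 and open points did not; Gpt2, at 0.46, is the filled point right of 0, and Bckdhb, at -0.11 here, is at 0.46 when libraries are scaled by total counts alone.

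Histidine degradation had the lowest median of the 9 groups, -1.63, and all 4 of its genes fell. Hal, histidine ammonia-lyase, which opens the pathway by turning histidine into urocanate, ran from 36.0 to 124 CPM in cdHFD (median 75.01) and from 226.5 to 629.5 CPM in chow (median 501). Every cdHFD library was below the lowest chow library, and the cdHFD mean was 16.6% of the chow mean. Its log2 fold change was -2.57 ± 0.13 (SE; adjusted p = 4.56e-17, edgeR). Uroc1, urocanate hydratase, averaged 158 ± 30.8 CPM in cdHFD and 578 ± 100.5 CPM in chow (SD, n = 16 each; log2 fold change -1.86 ± 0.09). Ftcd, which hands the one-carbon unit of histidine to folate, averaged 271 ± 62.3 CPM in cdHFD and 709.6 ± 161 CPM in chow (-1.40 ± 0.08). For both genes, as for Hal, the diets did not overlap. Amdhd1, imidazolonepropionase, overlapped, with 75.4 to 164 CPM in cdHFD and 117 to 411 CPM in chow (-1.24 ± 0.07). Of 6 other genes of histidine and folate one-carbon metabolism, 3 fell and 1 rose (2 and 3 under total counts alone). Aldh1l1, which oxidises formyl-tetrahydrofolate, had the largest change at -1.98 ± 0.12 (318 CPM in cdHFD, 1240 CPM in chow). Mthfd1, a folate-interconverting enzyme, fell by 1.18 on the log2 scale, and Cndp2, a dipeptidase, rose by 0.20 on that scale.

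All 5 tyrosine genes fell, with a median of -1.10. Hpd, hydroxyphenylpyruvate dioxygenase, had the highest level per length of the 38 genes in chow, 375 CPM per kb of exon in cdHFD and 1395 CPM per kb in chow. It ran from 487 to 1093 CPM in cdHFD (median 828) and from 2252 to 3921 CPM in chow (median 2847). The ranges were far apart, and the log2 fold change was -1.88 ± 0.11 (adjusted p = 6.93e-15, edgeR). The 3 enzymes after it in the pathway changed less, and their diets did not overlap either: -1.05 ± 0.10 for Hgd (homogentisate dioxygenase), -0.96 ± 0.07 for Gstz1 (maleylacetoacetate isomerase) and -1.10 ± 0.08 for Fah (fumarylacetoacetase). Tat, the aminotransferase that commits tyrosine to breakdown, varied widely within each diet, from 200 to 1517 CPM in cdHFD (median 777) and from 734 to 3581 CPM in chow (median 1908). Its fold change was -1.29 ± 0.22 with overlapping diets. All 8 other listed genes related to tyrosine metabolism fell as well (5 fell and 1 rose under total counts alone), among them Qdpr, which regenerates the tetrahydrobiopterin cofactor (-1.77 ± 0.08).

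The kynurenine pathway of tryptophan fell at all 5 steps, with a median of -1.38. Haao, hydroxyanthranilate dioxygenase, ran from 118.5 to 231 CPM in cdHFD (median 184.5) and from 535 to 1193 CPM in chow (median 717). No cdHFD library reached the chow range, and the fold change was -2.11 ± 0.11 on the log2 scale. Afmid, kynurenine formamidase, averaged 9.405 ± 2.83 CPM in cdHFD and 44.35 ± 14.1 CPM in chow (SD, n = 16 each; -2.20 ± 0.13), again without overlap. Of its exon bases, 44.2% are shared with Gm20708 on the same strand, which was at 0 CPM in the table, and 2.35% lie opposite Tk1, which averaged 46.1 CPM and whose reads there cannot be told apart from those of Afmid. Tdo2, tryptophan dioxygenase, which controls entry to the pathway in liver, ran from 138.5 to 628 CPM in cdHFD and from 330 to 2001 CPM in chow (-1.38 ± 0.20), with overlap. Kynu, kynureninase, and Kmo, kynurenine monooxygenase, changed by -1.04 ± 0.12 and -0.99 ± 0.07. All 8 tested genes of 10 others on this pathway fell (6 fell and 1 rose under total counts alone), led by Ido2, an indoleamine dioxygenase (-1.79 ± 0.12), Kyat1, a kynurenine aminotransferase (-1.71 ± 0.11), and Acmsd, which diverts the pathway away from NAD synthesis (-1.64 ± 0.14).

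Serine, glycine and threonine genes fell in all 5 tested cases, with a median of -0.73. Agxt, alanine-glyoxylate aminotransferase, which detoxifies glyoxylate in peroxisomes, ran from 77.1 to 223.5 CPM in cdHFD (median 125) and from 226 to 743 CPM in chow (median 402.5), so that the highest cdHFD library stood just below the lowest chow library. Its log2 fold change was -1.69 ± 0.14. Sds, serine dehydratase, averaged 77.2 ± 40.1 CPM in cdHFD and 210 ± 68.9 CPM in chow (-1.53 ± 0.16). Plbd2, on the opposite strand, shares 21.3% of the exon bases of Sds, and reads of the pair cannot be told apart in these non-directional libraries. Sdsl, its close relative, changed by -0.73 ± 0.11. Gldc and Amt encode the P and T proteins of the glycine cleavage system and changed by -0.65 ± 0.15 and -0.65 ± 0.08. Under total counts alone Sdsl, Gldc and Amt were no longer called (-0.17, -0.09 and -0.07). Tdh, threonine dehydrogenase, had 5 counts over 3 of 16 cdHFD libraries and 1 count in 1 chow library, so no fold change is given. Of 14 other genes around these steps, 13 were tested and 11 fell. Gnmt, which uses glycine to consume S-adenosylmethionine, had the largest change, -2.28 ± 0.20 (329 CPM in cdHFD, 1559 CPM in chow), followed by Gcat of threonine breakdown (-1.83 ± 0.12) and Pipox, which oxidises sarcosine and pipecolate (-1.70 ± 0.07).

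Both lysine genes fell. Aass, the bifunctional enzyme that starts the saccharopine pathway, averaged 106 ± 20.1 CPM in cdHFD and 236 ± 56.9 CPM in chow (-1.15 ± 0.10). Gcdh, glutaryl-CoA dehydrogenase, averaged 274 ± 43.2 CPM in cdHFD and 639 ± 80.0 CPM in chow (-1.22 ± 0.07), and its diets did not overlap. Of 10 other lysine genes 6 fell and 1 rose (3 and 6 under total counts alone), and the largest changes were in Dhtkd1, of ketoadipate oxidation (-1.24 ± 0.11), and Aldh7a1, aminoadipate-semialdehyde dehydrogenase (-1.14 ± 0.10).

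In proline metabolism all 3 degrading enzymes of the set fell. Aldh18a1 and the listed pyrroline-carboxylate reductases, which synthesise proline, went in both directions. Under total counts alone they were higher or not called. Prodh2, hydroxyproline dehydrogenase, ran from 110 to 264 CPM in cdHFD (median 161) and from 331 to 900 CPM in chow (median 499; -1.55 ± 0.12). Prodh, proline dehydrogenase, ran from 53.2 to 194 CPM in cdHFD and from 251 to 522.5 CPM in chow (-1.48 ± 0.13). Neither gene's diets overlapped, while those of Aldh4a1, which completes the oxidation to glutamate, did (-0.83 ± 0.11). Of Aldh4a1's exon bases, 32.5% are shared with Gm21969, which was at 0.00667 CPM on average. Of 7 other proline genes, 4 rose and 3 fell. Aldh18a1, pyrroline-carboxylate synthase, averaged 11.3 CPM in cdHFD and 1.40 CPM in chow (2.997 ± 0.10; adjusted p = 4.79e-20, edgeR), and Pycr1, pyrroline-carboxylate reductase, averaged 3.06 CPM in cdHFD and 0.566 CPM in chow (2.43 ± 0.18). Pycrl, another pyrroline-carboxylate reductase, named after its value was seen, fell by 0.42 on the log2 scale and was not called under total counts alone (0.15). Oat, ornithine aminotransferase, fell by 1.65 on the log2 scale and was still called lower under total counts alone (-1.08).

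The alanine and aspartate aminotransferases were split. Got1, the cytosolic aspartate aminotransferase, averaged 94.7 ± 31.0 CPM in cdHFD and 232 ± 96.1 CPM in chow (-1.27 ± 0.17). Gpt, the cytosolic alanine aminotransferase, averaged 299 ± 87.1 CPM in cdHFD and 444 ± 80.4 CPM in chow (-0.60 ± 0.11), and was not called under total counts alone (-0.03). Gpt2, the mitochondrial alanine aminotransferase, was the single gene that rose: it ran from 341 to 709 CPM in cdHFD (median 548) and from 255 to 571 CPM in chow (median 381), with overlap. Its log2 fold change was 0.46 ± 0.07 (adjusted p = 2.41e-06, edgeR). Per kb of exon Gpt2 ranked 8 among the 38 genes in cdHFD and 21 in chow. Of 10 other genes of alanine, aspartate, glutamate and asparagine metabolism, 7 fell and 3 rose. Asparagine genes differed in direction: Asns, asparagine synthetase, averaged 14.2 CPM in cdHFD and 2.37 CPM in chow (2.85 ± 0.32), and Aspg, an asparaginase, averaged 98.7 CPM in cdHFD and 369 CPM in chow (-1.88 ± 0.17). Asrgl1, another asparaginase, named after its value was seen, rose (0.80 ± 0.07). Gls2, the liver-type glutaminase, changed by -1.96 ± 0.13.

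Branched-chain genes were divided, with 5 of 7 lower, 2 not called and a median of -0.61. Ivd, isovaleryl-CoA dehydrogenase of leucine breakdown, had the smallest residual SD of the 37 genes, 0.179 on the log2 scale. It ran from 80.6 to 135 CPM in cdHFD (median 112) and from 229 to 320 CPM in chow (median 280), without overlap (-1.36 ± 0.06). Dbt, the transacylase core of the branched-chain keto acid dehydrogenase complex, averaged 42.1 ± 7.99 CPM in cdHFD and 93.8 ± 23.1 CPM in chow (-1.17 ± 0.12). The 2 subunits of the decarboxylase that works with Dbt were not called: Bckdhb averaged 104 ± 15.8 CPM in cdHFD and 113 ± 17.6 CPM in chow (-0.11 ± 0.07; adjusted p = 0.172, edgeR), and Bckdha averaged 36.4 ± 14.8 CPM in cdHFD and 47.9 ± 26.3 CPM in chow (-0.32 ± 0.25; adjusted p = 0.259, edgeR). With no filter on low counts Bckdha was called (-0.29; adjusted p = 0.00364), and under total counts alone Bckdhb was called higher (0.46; adjusted p = 2.13e-07). Bckdha had the widest spread of the 37 genes within groups, with a residual SD of 0.717; its 4 values at cdHFD ZT14 were 7.90, 13.7, 25.4 and 47.4 CPM and at chow ZT14 79.8, 18.1, 41.2 and 27.2 CPM. Of its exon bases, 61.7% lie opposite B3gnt8, which averaged 3.93 CPM. Further down the pathways, Mccc2 and Mccc1, the subunits of methylcrotonyl-CoA carboxylase, changed by -1.09 ± 0.08 and -0.61 ± 0.10, and Hibch of valine breakdown changed by -0.61 ± 0.14; Mccc1 and Hibch were not called under total counts alone (both -0.04). Of 20 other genes of the pathway 19 were tested: 16 fell (9 fell and 3 rose under total counts alone), with Abat, which degrades GABA and beta-alanine, at -1.48 ± 0.17 and Acadsb, a short branched-chain acyl-CoA dehydrogenase, at -1.43 ± 0.08. The 1 that rose, Bckdk, the kinase that inactivates the keto acid dehydrogenase, changed by 0.29 ± 0.08 and was named after its value was seen.

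All 3 sulfur amino acid genes fell, with overlap between diets in each. Cbs, cystathionine beta-synthase, which takes homocysteine out of the methionine cycle, ran from 123 to 333 CPM in cdHFD (median 188) and from 275 to 892 CPM in chow (median 607; -1.45 ± 0.10). Cth, cystathionine gamma-lyase, which makes cysteine, averaged 188 ± 54.9 CPM in cdHFD and 382 ± 143 CPM in chow (-1.02 ± 0.17). Cdo1, cysteine dioxygenase, which starts cysteine oxidation towards taurine and sulfate, averaged 1065 ± 261 CPM in cdHFD and 1664 ± 486 CPM in chow (-0.63 ± 0.13) and was not called under total counts alone (-0.06). Per kb of exon Cdo1 was the highest of the 38 genes in cdHFD, at 648 CPM per kb, and the next below Hpd in chow, at 1012 CPM per kb. Of 16 other sulfur genes 14 were tested, 10 fell and 3 rose (6 and 4 under total counts alone). The largest change was in Ahcy, which hydrolyses S-adenosylhomocysteine (-1.67 ± 0.11; 521 CPM in cdHFD, 1676 CPM in chow), and Mat2a, the methionine adenosyltransferase expressed outside the mature hepatocyte, was among those that rose (0.50 ± 0.10; named after its value was seen). Over all 9 groups, 100 other amino acid genes were listed and 94 tested, with 71 lower, 13 higher and a median of -0.74. Under total counts alone 47 were lower and 27 higher (1632 and 12353 of all 17853 genes), with a median of -0.17. All of these other genes named above with a fold change, except Pycrl, kept their direction and their call.

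**Figure D2:**
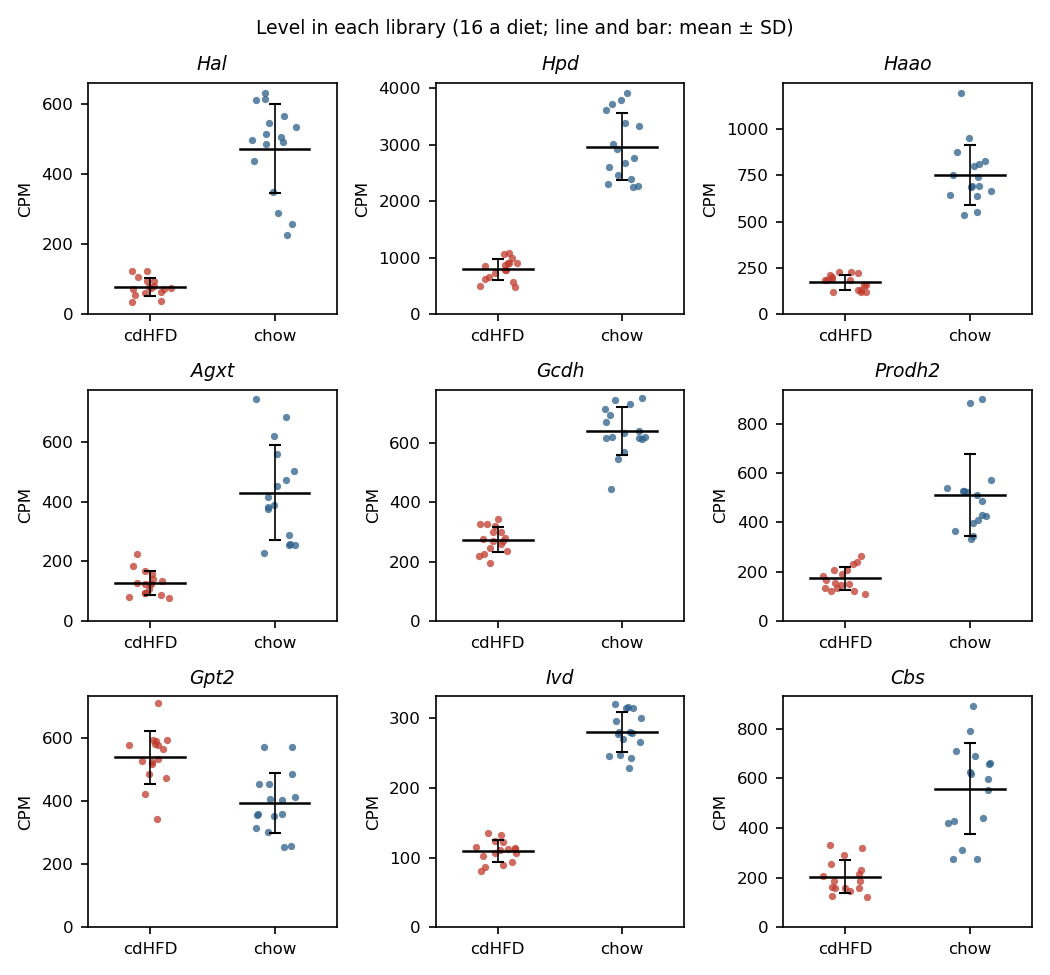
CPM of 9 genes in every library (y axis, linear and starting at 0; points are 16 cdHFD libraries at left and 16 chow libraries at right; lines and bars are mean ± SD). Hal, Hpd, Haao, Agxt, Gcdh, Prodh2 and Ivd show separate ranges, Cbs overlaps (by total counts alone Agxt, Gcdh and Prodh2 overlap too, and Gpt2 does not), and Gpt2 averages 537.5 CPM in cdHFD and 394 CPM in chow.

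The falls were present throughout the day. At ZT2, 28 of 37 genes fell and 1 rose (20.7% and 21.0% of all genes). At ZT8, 33 fell and 1 rose (19.4% and 20.6% of all genes). At ZT14, 29 fell and 0 rose (15.8% and 19.8% of all genes), and at ZT20, 33 fell and 0 rose (19.3% and 19.8% of all genes). The median log2 fold change of the set was -0.84 at ZT2, -1.15 at ZT8, -0.99 at ZT14 and -1.29 at ZT20. In 24 genes the fall was called at all 4 times, against 7.27% of all genes. That count was 12 under total counts alone, 22 to 24 in refits without 1 library, and 22 without the 3 libraries above 10% mitochondrial counts, where Sds at ZT2 and Cth at ZT14 were not called (adjusted p = 0.0532 and 0.0601). The others were Gpt2, Bckdha and Bckdhb with Tat, Tdo2, Sdsl, Gldc, Amt, Got1, Gpt, Mccc1, Hibch and Cdo1, of which several missed the threshold at ZT2. Tdo2, for example, measured 628, 502, 281 and 138.5 CPM in cdHFD at ZT2, against 718, 330, 332 and 645 CPM in chow (-0.50 ± 0.41; adjusted p = 0.296, edgeR). At ZT14 it measured 160, 146, 336 and 404 CPM in cdHFD, against 1576, 648, 900 and 737 CPM in chow (-1.90 ± 0.41), with no overlap. Its change in diet effect with time was not called (adjusted p = 0.247). Under total counts alone 15 genes fell at ZT2, and Amt at ZT20 changed sign (0.075, not called). The shares of all genes given above are with TMM and all 32 libraries. Those under total counts alone or with libraries left out are not given here.

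**Figure D3:**
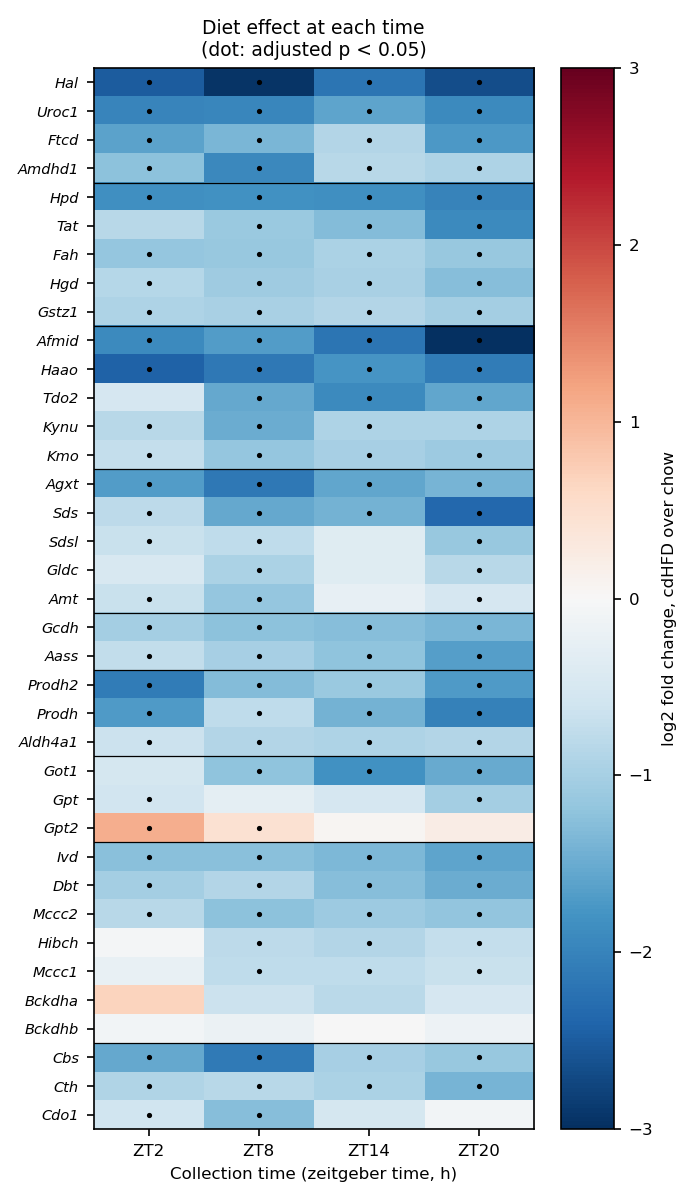
Log2 fold change of cdHFD over chow for each tested gene (rows, grouped by amino acid) at each collection time (columns); blue is lower and red higher in cdHFD, and a dot marks an adjusted p under 0.05. Most rows are blue at all 4 times, and Gpt2 is red with a dot at ZT2 and ZT8, and Bckdha is red without a dot at ZT2 (0.68, not called). Under total counts alone Amt at ZT20 changed sign.

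The size of the diet effect differed with time in 4 genes, Amdhd1, Gpt2, Cbs and Afmid, by the 3 df edgeR test, against 5.77% of all genes. For Amdhd1 the fold changes were -1.23, -1.94, -0.83 and -0.94 from ZT2 to ZT20 (adjusted p = 0.00423), and for Cbs they were -1.53, -2.12, -0.99 and -1.15 (adjusted p = 0.0432). Both genes had their largest deficit in cdHFD at ZT8 and their smallest at ZT14. Gpt2 was higher in cdHFD at ZT2 by 1.09 ± 0.13 and at ZT8 by 0.47 ± 0.13, and its values at ZT14 and ZT20 were 0.07 ± 0.13 and 0.21 ± 0.13 (adjusted p for the change with time = 0.0078). At ZT2 its 4 values were 592, 709, 518 and 592 CPM in cdHFD, against 301, 255, 316 and 257 CPM in chow, with no overlap. At ZT14 they were 564, 486, 576 and 522 CPM in cdHFD, against 569, 407, 571 and 454 CPM in chow, and the ranges were almost the same. Afmid had its largest deficit at ZT20, -3.01 ± 0.26, with 10.5, 8.91, 6.20 and 5.99 CPM in cdHFD, against 59.4, 65.5, 66.3 and 66.7 CPM in chow (adjusted p for the change with time = 0.0496). In refits that left out 1 library each, the Afmid call was lost in 23 of 32 (adjusted p 0.014 to 0.122) and the Cbs call in 22 of 32 (0.0216 to 0.0998), while those of Amdhd1 and Gpt2 held in all 32. Without the 3 libraries above 10% mitochondrial counts, all of them chow, Cbs and Afmid were not called (adjusted p = 0.109 and 0.0792).

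A 24 h wave was called in 4 of 37 genes in cdHFD (2.47% of all genes) and in 9 in chow (17.7% of all genes). The period was set, since 4 times do not allow it to be estimated. The 4 in cdHFD were Amdhd1, Gldc, Amt and Cbs, and the 9 in chow were these with Hal, Ftcd, Afmid, Agxt and Gpt2. Amdhd1 in cdHFD had an amplitude (mean to peak) of 0.44 ± 0.09 on the log2 scale with its peak at 23.8 ± 0.794 h, and in chow 0.63 ± 0.09 with its peak at 3.63 ± 0.552 h (± SE). Its 4 values at ZT8, the hour of the widest gap, were 88.1, 117, 108 and 81.3 CPM in cdHFD, against 361, 404, 341 and 411 CPM in chow. Cbs had amplitudes of 0.48 ± 0.11 in cdHFD and 0.61 ± 0.11 in chow, with peaks at 22.9 ± 0.871 h and 2.93 ± 0.677 h. Amt of the glycine cleavage system had amplitudes of 0.46 ± 0.10 in cdHFD and 0.48 ± 0.10 in chow, with peaks at 22.4 ± 0.804 h and 1.63 ± 0.767 h. Its partner Gldc had amplitudes of 0.58 ± 0.15 in cdHFD and 0.56 ± 0.15 in chow, with peaks at 21.0 ± 1.01 h and 21.9 ± 1.05 h. The cdHFD wave of Gldc lay at the threshold (adjusted p = 0.04998) and was lost in 22 of 32 refits without 1 library (0.0126 to 0.138). Without the 3 chow libraries above 10% mitochondrial counts, the chow waves of Hal and Ftcd were not called either (adjusted p = 0.0816 and 0.181).

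The wave itself differed between the diets in 2 of 37 genes, Gpt2 and Amdhd1, a share near the 3.64% of all genes. Gpt2 had amplitudes of 0.18 ± 0.07 in cdHFD and 0.41 ± 0.07 in chow, where it peaked at 13.8 ± 0.646 h (adjusted p for the difference = 0.00999, edgeR). For Amdhd1 the adjusted p for the difference was 0.0281, and it passed the threshold no longer without replicate 1 or 4 of cdHFD ZT8, replicate 1 or 2 of cdHFD ZT20, or replicate 2 or 4 of chow ZT8 (adjusted p 0.019 to 0.0673 over the 32 refits). For Hal, Ftcd, Afmid and Agxt, not called in cdHFD and called in chow, the test of the difference was not past the threshold (adjusted p = 0.729, 0.148, 0.051 and 0.399), nor was it for Cbs, Amt and Gldc (0.0681, 0.177 and 0.952). The highest collection time in chow was ZT2 for Hal (613, 506, 492 and 629.5 CPM), and its lowest was ZT14 (258, 289, 347 and 226.5 CPM), with no overlap between them. Afmid in chow was highest at ZT20 and lowest at ZT2 (29.8, 34.4, 33.5 and 35.9 CPM).

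**Figure D4:**
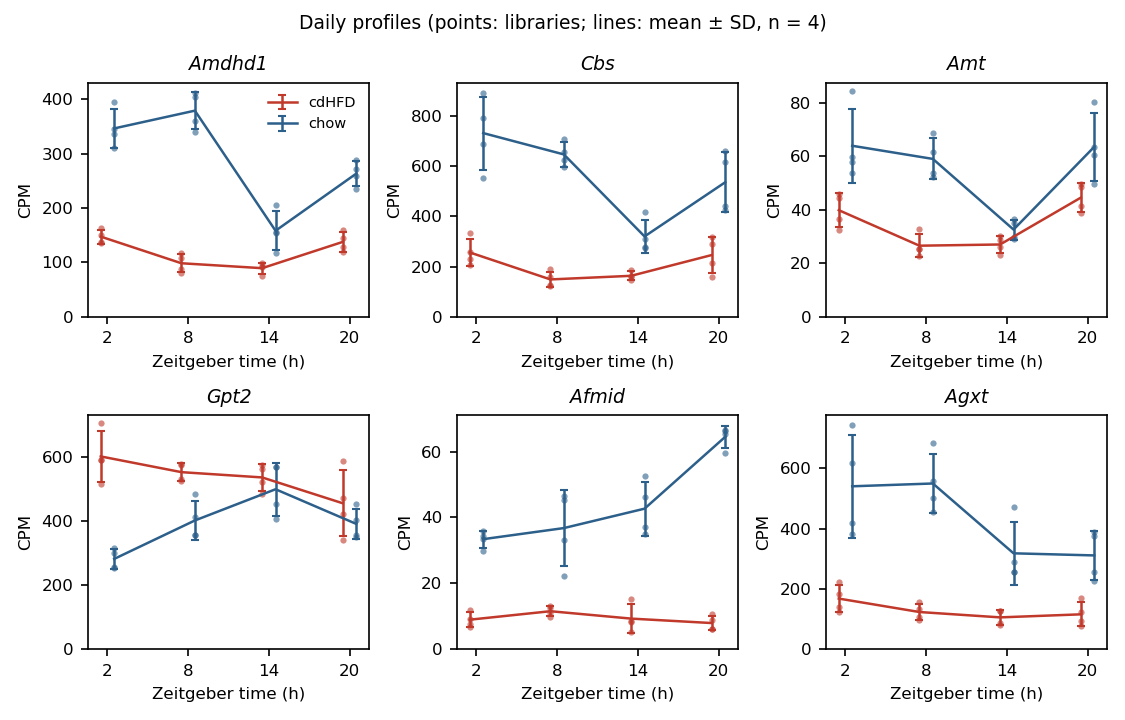
CPM of 6 genes by zeitgeber time (x axis, h), with cdHFD in red and chow in blue (points are libraries, lines are the mean ± SD of 4, and the diets are drawn side by side at each time). Amdhd1 and Cbs are low at every time in cdHFD, and in chow they are high at ZT2 and ZT8 and lowest at ZT14; Gpt2 at ZT2 is at its highest mean in cdHFD and at its lowest in chow.

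Sex differences were few in this set. In cdHFD 0 of 37 genes differed between females and males (0.941% of all genes; 5 of the 37 had an unadjusted p under 0.05, and DESeq2 also called 0). In chow 2 of 37 genes were higher in females, Agxt and Cdo1, a share near the 6.12% of all genes. Agxt in cdHFD averaged 113 ± 37.0 CPM in 7 female libraries and 139 ± 40.6 CPM in 9 male libraries (-0.40 ± 0.14, adjusted p = 0.301, edgeR). In chow it averaged 516 ± 161 CPM in females and 343.5 ± 108 CPM in males (SD, n = 8 each; 0.60 ± 0.14; adjusted p = 0.00335, edgeR). The female minus male difference, cdHFD minus chow, was -0.99 ± 0.20 on the log2 scale (adjusted p = 0.00315). Cdo1 had the same arrangement, with 930 ± 139 CPM in females and 1170 ± 291 CPM in males in cdHFD (-0.31 ± 0.15), and 1916 ± 333 CPM in females and 1411 ± 500 CPM in males in chow (0.49 ± 0.14; adjusted p = 0.0213, edgeR). Its sex difference, cdHFD minus chow, was -0.81 ± 0.21 (adjusted p = 0.0265). No other gene of the 37 had a called change of the sex difference, and 1.05% of all genes had one in this direction. The change in Agxt held in all 32 refits without 1 library, and that in Cdo1 was lost in 7 of them, without replicates 2 or 4 of cdHFD ZT2, 2 or 4 of cdHFD ZT20, 3 of chow ZT14, or 2 or 4 of chow ZT20 (adjusted p 0.00805 to 0.058). Without the libraries above 10% mitochondrial counts neither the chow sex difference of Cdo1 nor its change was called (adjusted p = 0.126 and 0.0956).

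**Figure D5:**
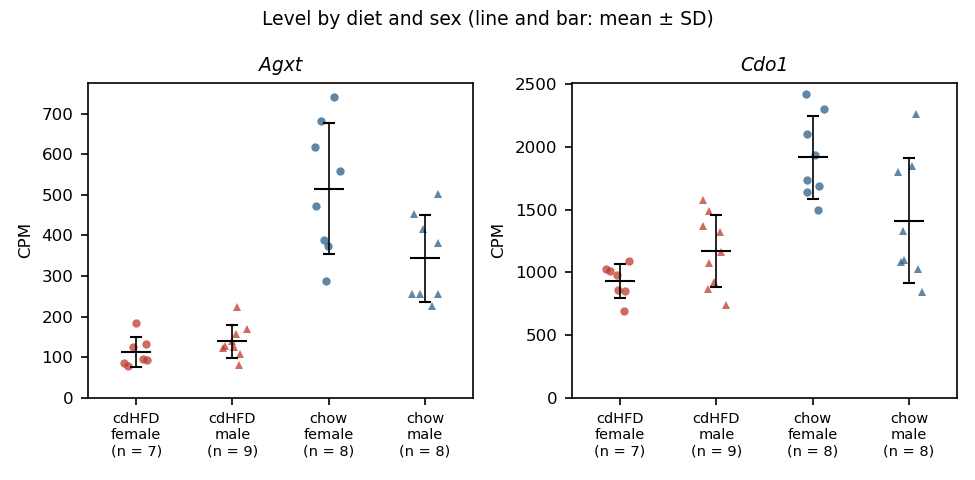
CPM of Agxt and Cdo1 by diet and sex (points are libraries; lines and bars are mean ± SD; females are circles and males triangles). In cdHFD female libraries are lower than male libraries on average (not called), and in chow they are higher on average.

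Lists of hepatocyte position and of other cells were measured in the same libraries. Of 16 periportal genes, 3 of them members of the set (Hal, Sds and Uroc1), 11 were lower and 2 higher, with summed levels of 3418 to 8471 CPM in cdHFD and 10295 to 18103 CPM in chow. Of 16 pericentral genes 12 were lower and 0 higher, with summed levels of 4065 to 10629 CPM in cdHFD and 8316 to 22501 CPM in chow. With TMM every cdHFD library was below every chow library for 8 of 20 hepatocyte markers, 7 periportal and 2 pericentral genes. That held for 16 of the 37 tested genes of the set, and 1 hepatocyte marker lay wholly above chow. Stellate cell and fibroblast markers were higher in 9 of 10 cases (714 to 2146 CPM in cdHFD, 207 to 607 CPM in chow). Neutrophil markers were higher in 6 of 6 tested of 10 (12.0 to 77.3 CPM in cdHFD, 2.56 to 11.9 CPM in chow). Cholangiocyte markers were higher in 6 of 8, with 1 lower (132 to 766 CPM in cdHFD, 70.6 to 249 CPM in chow). The highest value of a single cholangiocyte marker was 645 CPM, so the highest sum can rest largely on a single gene. Of 10 endothelial markers 4 were higher and 4 lower (281 to 480 CPM in cdHFD, 215 to 500 CPM in chow), and of 10 lymphocyte markers 3 were higher (6.69 to 18.7 CPM in cdHFD, 5.97 to 22.5 CPM in chow). Under total counts alone the periportal genes were lower in 10 and higher in 5 cases, and the pericentral genes lower in 6 and higher in 5. Endothelial markers were then higher in 8 and lower in 0, lymphocyte markers higher in 9 of 10 and cholangiocyte markers higher in 8 of 8. Hepatocyte markers were lower in 15 of 20 and higher in 3, with a median of -0.49. Of all 17853 genes, 1632 were lower and 12353 higher under that scaling. The median of all genes was 0.56, beside 0.75 for the lymphocyte markers. The part of these cell types and positions in the results was not tested. Of markers of other tissues, 8 kidney genes summed to at most 0.241 CPM in cdHFD and 0.161 CPM in chow, with Kap at 0, and 10 pancreatic genes to at most 14.1 CPM in cdHFD and 38.8 CPM in chow, with Pnlip and Try4 at 0. Nearly all of the pancreatic sum was Cela1, an elastase named after its value was seen, at 10.8 CPM in cdHFD and 23.6 CPM in chow (-1.11 ± 0.08, called lower). Without the 3 libraries above 10% mitochondrial counts the mean diet effect kept its direction and its side of the threshold in all 37 genes.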

How the data were processed

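Polyadenylated liver RNA was sequenced as non-directional paired-end libraries with 40 M reads planned, from samples with an RNA integrity number above 6.5, per the labels' protocols. The deposited file holds raw counts per gene; HISAT2, featureCounts, DESeq2 and build GRCm38 (mm10) are named in the submitters' processing notes. No version, and no rule for reads shared between genes, was given in the sources used here, so genes with overlapping exons are uncertain; 7 of the 38 genes have such an overlap. Coordinates, exon lengths and overlaps are from GENCODE M21 (GRCm38), and promoters from RefSeq (GRCm38.p6).

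The fits used edgeR 4.0.16 under R 4.3.3 (quasi-likelihood test, robust; TMM; default expression filter on 8 groups) over all genes, with Benjamini-Hochberg adjustment. DESeq2 1.42.0 was an alternative, and limma 3.58.1 made the ordinary least squares fits. All 32 libraries entered 3 models: group and sex; a 24 h cosine and sine within diet, with sex; and group with sex within diet. Log2 fold changes are edgeR's (prior count 0.125); the SE beside each comes from ordinary least squares on log2 CPM (prior count 2) and so from a different estimator, and amplitudes and peak times come from that fit too. The fits were tested on simulated data. Counting error is small beside the spread between libraries at these depths.

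Groups follow the sample titles. Replicates are not stated to be separate animals, so a p-value reflects only how far these samples vary, which may be technical. Of 48 replicate pairs none looked like 1 library deposited again (chi-square over its degrees of freedom 19 to 324). Xist levels fitted the sex label in 32 of 32 libraries. The members, gene lists and tests were chosen with earlier results of these data known. Every member is described; of each list of other genes at most the 4 called genes with the largest change are named, and of regulators any; Bckdk, Mat2a, Pycrl, Asrgl1 and Cela1 were named outside this rule, after their values were seen. Alternatives were scaling by total counts or by relative log expression, DESeq2, no filter, a replicate block, no sex term, each library left out, and any difference among times; the exclusion of libraries above 10% mitochondrial counts was added after the data were seen.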

Additional observations from a re-analysis of the deposited data

Results flagged for a closer look

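In 296 groups of 4 libraries (37 genes in 8 groups), 9 had 1 library whose gap to its neighbour was above the 95% critical value of Dixon's ratio of that gap to the group's range; chance gives about 1 in 20 groups. Of these, 2 were in cdHFD: Ftcd at ZT8 replicate 2, at 322 CPM (others 237 to 240), and Sdsl at ZT20 replicate 3, at 11.4 CPM (others 14.8 to 15.1). The other 7 were in chow. Replicate 3 at ZT14 was high in both Hpd, at 3921 CPM (others 2466 to 2682), and Agxt, at 472 CPM (others 255 to 288), and is 1 of the 3 libraries above 10% mitochondrial counts. Replicate 4 at ZT14 was low in Sds, at 201 CPM (others 303 to 322). Tat at ZT2 replicate 1 was at 2113 CPM (others 1296 to 1389), and Gcdh at ZT2 replicate 2 was at 445 CPM (others 611 to 619). Aass at ZT8 replicate 1 was at 320 CPM (others 218 to 227), and Dbt at ZT20 replicate 1 was at 89.6 CPM (others 109 to 111).

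Tests of a difference between groups were past the threshold in 6 genes. The diet effect differed between collection times in Amdhd1 (adjusted p = 0.00423), Gpt2 (0.0078), Cbs (0.0432) and Afmid (0.0496) by edgeR's quasi-likelihood test. The 24 h wave differed between the diets in Gpt2 (adjusted p = 0.00999) and Amdhd1 (0.0281). The sex difference differed between the diets in Agxt (adjusted p = 0.00315) and Cdo1 (0.0265). Both calls of Gpt2, the diet by time call of Amdhd1 and the call of Agxt held in all 32 refits without 1 library.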

How the results depend on the processing

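The mean diet effect kept its direction and its side of the threshold in all 37 genes under relative log expression factors, DESeq2, the replicate block, no sex term, the exclusion of libraries above 10% mitochondrial counts and each of 32 refits without 1 library (34 lower and 1 higher in each refit); without the filter Bckdha was called lower. Total counts alone changed most: 7 falls were not called, Bckdhb was higher (0.46), 2 genes rose in the mean, 3 at ZT2 and 2 at each of ZT8, ZT14 and ZT20, 15 fell at ZT2, Amt at ZT20 changed sign (0.075), 6 genes lay wholly below and 1 wholly above chow, and 4 were higher in chow females; the share of higher among called genes was 88.3%, against 49.9%. Counts of calls on time and sex moved more. The diet by time count of 4 was 8 with DESeq2, 14 with no filter and 2 without the high-mitochondrial libraries. The wave difference count of 2 was 5 with DESeq2, 11 with no filter and 4 with any difference among times; the cdHFD wave count of 4 was 11 with no filter. Higher in chow females were 4 genes with DESeq2 or no filter and 1 without the high-mitochondrial libraries. With no filter 1 gene was lower in chow females, 2 in cdHFD females, 4 had a lower sex difference in cdHFD than in chow, and 2 rose at ZT2; the count of lower sex differences was 1 without the high-mitochondrial libraries. Apart from the construction of total counts, the cause was not tested. Counts over all genes under these settings are not given in this paragraph, except the share of higher genes under total counts alone. The counts of the set here therefore describe only its own calls and are not compared with those of all genes.

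Refits without 1 library gave 2 to 8 genes for diet by time (8 without cdHFD ZT2 replicate 4 or chow ZT2 replicate 4, and 2 in 13 refits), 2 to 7 for the cdHFD wave (7 without cdHFD ZT2 replicate 4, 2 without cdHFD ZT20 replicate 1), 1 to 6 for the wave difference (6 without cdHFD ZT2 replicate 4), 1 to 2 rising at ZT2 (2 without chow ZT2 replicate 4), 0 to 1 lower in cdHFD females (1 without cdHFD ZT14 replicate 4), 1 to 4 higher in chow females (4 without cdHFD ZT2 replicate 4 or cdHFD ZT8 replicate 1) and 1 to 2 with a lower sex difference in cdHFD. Counts over all genes moved in these refits too: 688 to 2065 for diet by time, 279 to 640 for the cdHFD wave and 431 to 1179 for the wave difference. They were 3168 to 4108 rising at ZT2, 55 to 82 lower in cdHFD females and 973 to 1232 higher in chow females. For a lower sex difference in cdHFD they were 149 to 261. The fall of Cdo1 at ZT2 was lost in 24 of 32 (adjusted p 0.0126 to 0.164), its chow sex difference in 4 (0.0053 to 0.0691), and the chow wave in 9 for Ftcd (0.0171 to 0.157), 6 for Afmid (0.00799 to 0.0775) and 3 for Hal (0.0133 to 0.0884).

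Replicate numbers did not pair the samples across diets at the same time: of 16 same-numbered pairs 1 correlated above 0.1 (r -0.39 to 0.259). Whether same-numbered libraries of 1 diet go together across times was not tested. With the number as a block in place of sex, Cdo1 at ZT2, Afmid's diet by time and Gldc's cdHFD wave were not called. For sex the block says nothing: replicates 1 and 2 are all male and 3 and 4 all female but for replicate 3 of cdHFD ZT14, so the labels set that a block beside sex takes up the sex difference (0 genes higher in chow females and 1 with a lower sex difference in cdHFD). Depth limited only Tdh.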

Other observations

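Amino acid transporters went in both directions. Of 27 listed, 9 rose and 13 fell (31.0% and 31.2% of all genes), with a median log2 fold change of -0.18. The share that rose was near that of all genes. Under total counts alone 15 rose and 5 fell (12353 and 1632 of all 17853 genes), with a median of 0.40 (0.56 for all genes). The 4 largest changes were all higher in cdHFD. Slc7a8, a neutral amino acid exchanger, averaged 23.3 CPM in cdHFD and 4.13 CPM in chow (2.57 ± 0.12), Slc7a1, a cationic amino acid carrier, averaged 4.61 CPM in cdHFD and 0.743 CPM in chow (2.64 ± 0.16), and Slc38a1, a sodium-coupled neutral amino acid carrier, averaged 6.25 CPM in cdHFD and 1.43 CPM in chow (2.17 ± 0.16). Slc7a11, the cystine and glutamate exchanger, averaged 2.74 CPM in cdHFD and 0.0314 CPM in chow; its fitted fold change depends on the prior count and is not given.

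Of 20 genes listed as regulators of these pathways, some of them stress-induced or glucocorticoid-induced genes, 14 fell and 2 rose (31.2% and 31.0% of all genes). Under total counts alone 5 fell and 7 rose (1632 and 12353 of all 17853 genes). Onecut1, a liver transcription factor, changed by -1.84 ± 0.25, Klf15, a factor that drives amino acid catabolism genes in fasting, by -1.09 ± 0.14, Cebpa by -0.99 ± 0.09, Hnf4a by -0.78 ± 0.06 and Gcgr, the glucagon receptor, by -0.71 ± 0.12; of these 5 genes only Gcgr lost its call under total counts alone (-0.14). Ddit4 and Sesn2, stress-induced inhibitors of mTORC1 signalling, rose by 1.30 ± 0.25 and 0.75 ± 0.10. Atf4, the factor of the amino acid response that induces Asns, measured -0.12 ± 0.07 (adjusted p = 0.164, edgeR's quasi-likelihood test), and the glucocorticoid-induced genes Per1 and Fkbp5 measured 0.17 ± 0.21 and 0.24 ± 0.19 (adjusted p = 0.451 and 0.257). These 3 genes were called higher in cdHFD under total counts alone (0.45 for Atf4, 0.74 for Per1 and 0.81 for Fkbp5), beside a median of 0.56 over all genes. Whether these changes bear on the enzymes was not tested.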
